A study of Mus musculus with 12 samples.

Results

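The 6 arrays described here hold the islet RNA of 6 NOD mice, 1 array per mouse, and were chosen by their titles from a series of 12 arrays. NOD mice develop autoimmune diabetes without any induction. Leukocytes gather around and inside the islets of Langerhans, a state called insulitis, and the insulin-producing beta cells are lost over time, at a pace that differs from mouse to mouse. An islet also holds alpha, delta and PP cells, which make glucagon, somatostatin and pancreatic polypeptide, and it lies in exocrine tissue whose acinar cells make digestive enzymes. A piece of tissue cut out around an inflamed islet can therefore hold endocrine, immune and acinar RNA in shares that are not fixed.

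All 6 mice were female, of the NOD strain and 12 weeks old, with no treatment named in the labels. Islets were cut from tissue by laser microdissection, their total RNA was amplified, and the product was labelled with Cy5. A purchased universal mouse RNA, amplified alike and labelled with Cy3, was hybridised with each islet sample, so that every value is a ratio of islet to the same reference. The dyes were not swapped, so a dye effect of a probe and a difference between islet and reference cannot be told apart. The labels give no insulitis score, blood glucose or islet count for a single mouse, and with 1 array per mouse the mouse and the array cannot be told apart. Replicate spread is therefore that between arrays of different mice.

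The share of spots with Cy5 well above background was 14 ± 2.55% (SD, n = 6), from 10.7% in mouse 5 to 17.3% in mouse 2, and Cy3 on 46.7 to 51.9%. No spot was saturated. Cy5 was well above background on all 6 arrays for 3089 of 41174 probes, and 2520 of these carried a gene symbol, which gave 2356 genes. A gene's value is the log2 of Cy5 over Cy3 after background subtraction, minus the median of these probes on its array. It is thus a level relative to the other RNA of that islet sample, and it falls when other RNA takes a larger share. In such mixed tissue, fewer cells of a type and less RNA per cell cannot be told apart. The arrays lay on 3 slides, with mice 1 and 2, 3 and 4, and 5 and 6 sharing a slide each.

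The defining genes of islets and leukocytes were checked first. Ins2 (insulin), Chga (chromogranin A of the hormone granule), Ptprc (CD45, carried by all leukocytes), B2m (beta-2 microglobulin, part of MHC class I molecules) and Lyz2 (lysozyme of macrophages) were well above background on 6 of 6 arrays. Slc2a2, the beta cell's glucose transporter, was so on 5 of 6 arrays, with a net Cy5 signal of 14 to 206.5 scanner units, and was left out of the fits. The single probes of Cd3e and Cd79a, chains of the T and B cell receptors, and of the beta cell factors Pdx1 and Mafa were well above background on 0 arrays. Cd3d and Cd79b, other chains of the same receptors, were measured on all of them. Both the endocrine and the leukocyte label are thus borne by measured genes, but not by every marker.

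Against the reference, 683 of the 2356 genes were higher in NOD islets and 859 were lower (limma, adjusted p under 0.05), which is 29% and 36.5% of the genes tested. A total of 419 genes was higher and 519 lower by over 2-fold. The median of all genes lay at -0.10, near 0 by the choice of scale. The counts of each list below stand beside these percentages, and the filter kept only genes with a visible islet signal, so the members that passed are not all members of a list.

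Among the genes with the highest ratios were the islet hormones. G6pc2, a glucose-6-phosphatase of beta cells, had the highest mean log2 ratio, 10.70 ± 1.02 (SD, n = 6). Its reference signal was small, 24 to 48 net units in Cy3, though well above background on 6 arrays, so the size of this ratio is uncertain. Gcg, which encodes glucagon, followed at 9.10 ± 0.48, a 550-fold higher level than the reference on this scale (adjusted p = 3.01e-10, limma). The 2 mouse insulin genes, Ins1 and Ins2, had means of 8.34 ± 0.84 and 8.29 ± 0.82. Sst, which encodes somatostatin, reached 7.27 ± 0.56, and Pyy, a peptide of PP and other endocrine cells, 7.21 ± 0.34. The remaining genes among the highest 10 were Chga at 6.18, the prohormone convertase Pcsk2 at 6.16, Shisal2b at 6.10 and Prl2c5, a member of the prolactin family. Prl2c5 was the only gene whose reference signal was above background on no array. Its net signal was small, 13 to 95.5 units in Cy5 and 1 to 6.5 in Cy3. With Cy3 set to at least the weakest signal flagged above background on each array, its level was 251-fold higher on this scale. A flagged signal can itself lie near 0, so this value is no firm lower bound.

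Not all measured genes on the endocrine cell lists were higher, and list membership does not make a gene particular to these cells. Of 5 measured beta cell hormone and surface genes 4 were higher and 1 was lower, and of 4 genes of beta cell glucose sensing and metabolism 1 was higher and 3 were lower, the dehydrogenase genes Mdh1, Mdh2 and Glud1. Of 8 alpha, delta, PP and epsilon cell genes 4 were higher, 1 was lower and 3 were not called. The lower gene was Rbp4, a retinol carrier also made in liver, at -3.09, and after normexp and loess it was no longer called.

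Hormones differed in how much they varied. Gcg ranged over 2.79-fold between the 6 mice and Pyy over 1.86-fold, whereas Ins2 ranged over 3.67-fold, Ins1 over 4.46-fold and Iapp, the beta cell peptide amylin, over 5.59-fold. Of the 11 measured genes of the secretory granule, which stores hormones, 11 were higher than the reference, with a median log2 ratio of 4.07. Their median SD was 0.83, against 0.48 over all genes. Pcsk2 had the smallest spread of the granule genes named here, with an SD of 0.32 and values from 5.82 to 6.54. On Cy5 alone the SD of Pcsk2 was 0.60 and that of Chgb 0.58, and the reference signal of Pcsk2 ran from 550 to 1268 units, so Pcsk2 did not vary less than Chgb in that channel. The granins Chgb and Scg3 had means of 4.07 ± 0.68 and 3.90 ± 0.92.

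Most measured leukocyte genes were higher than the reference. Each of the 13 measured pan-leukocyte genes was higher than the reference, as were 5 of 5 T cell genes, 5 of 5 B and plasma cell genes, 11 of 11 genes of MHC class I presentation and 3 of 3 of class II. B2m, at 0.83 ± 0.46, and Canx, a chaperone also on the ER list, were no longer called with the scanner's processed ratio (0.27 for B2m, adjusted p = 0.211, limma) or with the deposited series table. Canx, at 0.53 ± 0.42, also lost its call without mouse 1, 2, 3 or 6, and with the mean over probes its sign turned (-0.059). Of 15 macrophage and dendritic cell genes 11 were higher, 2 were lower and 2 were not called, with the lysosomal protease gene Ctss at 2.66 ± 0.78 and Ctsl at -1.32 ± 0.26. Ptprc had a mean log2 ratio of 3.17 ± 0.61, with a lowest value of 2.34, a median of 3.27 and a highest value of 3.87. Among T cell genes, Ms4a4b reached 4.74 ± 0.63, the interleukin 7 receptor Il7r 4.51 ± 0.84 and Cd3d 3.65 ± 0.64. Ms4a1, which encodes CD20 of B cells, had a mean of 3.24 ± 0.67, and Jchain, the joining chain of secreted IgA and IgM, 2.47 ± 0.57. Cd74, the class II invariant chain, had a mean of 4.06 ± 1.37 (adjusted p = 6.3e-06, limma). Its values ran from 1.75 in mouse 5 to 5.38 in mouse 2, a range of 12.4-fold. In mouse 5 the net Cy5 signal was only 16.5 scanner units for Cd74, 17.5 for H2-Ab1 and 17 for H2-Oa, the 3 class II genes.

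Chemokines and interferon-induced genes were high as well. Of 9 measured genes of chemokines and their receptors, 8 were higher and 1 was lower. Of 20 interferon-induced genes, 15 were higher and 3 lower. Ccl19, which draws T cells and dendritic cells into lymphoid tissue, had a mean of 4.40 ± 0.52, and Ccl5, made by effector T cells, 4.70 ± 0.50. Cxcl10, an interferon-induced ligand of the receptor CXCR3, had a mean of 4.17 ± 0.93. Lgals3bp and Igtp, both induced by interferon, had means of 2.55 ± 0.40 and 1.73 ± 0.48.

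Several lists had lower calls. The lowest mean was that of Myot, a muscle protein, at -6.38 ± 0.66, and Mup1, a major urinary protein made in liver, followed at -6.26 ± 0.61. Fabp1 and Fgg, also liver genes, and Fabp2, a gene of the gut, lay between -6.02 and -5.93. The net Cy5 signal of these genes was small, 11.6 scanner units on average for Myot and 42.8 for Mup1, against a Cy3 signal of 32256 and 110421. Of 59 respiratory chain genes 58 were lower, with a median of -1.74, and of 12 antioxidant genes 11 were lower. Of 13 mesenchyme and matrix genes 10 were lower, and of 20 ER chaperone genes 4 were higher and 3 lower. Among 60 cytosolic ribosomal protein genes 45 were higher and 1 lower, with a median of 0.83. All 14 acinar genes that passed the filter were lower, with a median of -2.82.

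These directions depend in part on the scaling. With a normexp background correction and loess in place of subtraction and median centring, 1003 genes were higher and 432 lower, 69.9% of calls on the higher side in place of 44.3%, and the median of all genes moved to 0.24. With that median subtracted, the sign turned for abundant genes with a bright reference, among them the ATP synthase genes Atp5c1, Atp5g3 and Atp5j, the ferritin gene Fth1, Mdh2, Glud1, Ctsl and Cpa1. Of the other acinar genes, Cela3b, Clps, Sycn, Reg1 and Rnase1 were no longer called under it. For these genes a lower level than the reference was thus not kept under that scaling. The sign of Ins1, Ins2, Gcg, Ptprc and Cd74 was kept under each alternative run on centred values, with and without each mouse.

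**Figure D1:**
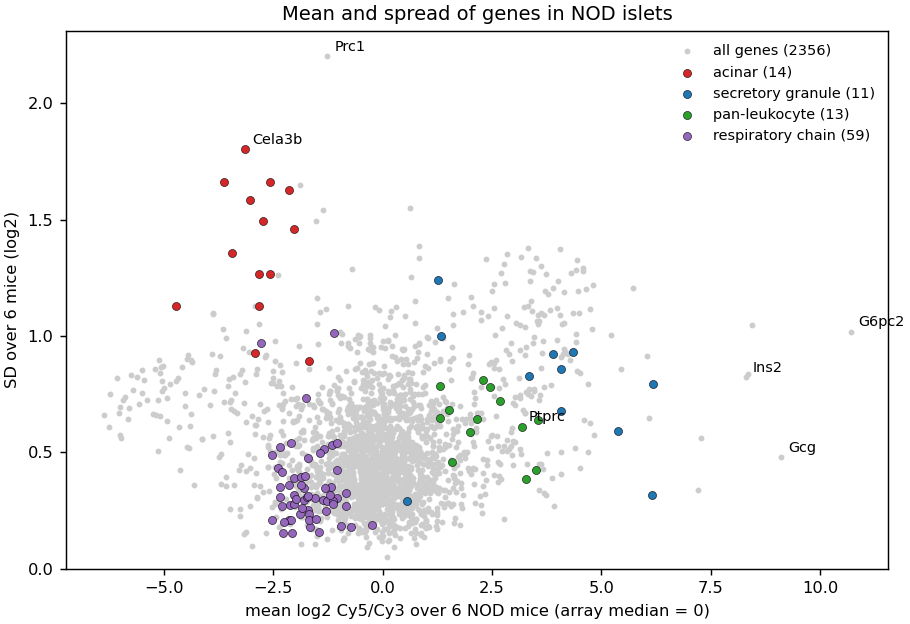
Mean log2 Cy5/Cy3 over 6 NOD mice (horizontal axis, array median at 0) against the SD over the 6 mice (vertical axis, log2), 1 point per gene, for all 2356 genes and for 4 coloured lists. Acinar genes lie low on the ratio axis with a median SD of 1.41, granule genes lie high with a median SD of 0.83, and respiratory chain genes have a median SD of 0.30.

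The median SD of a gene over the 6 mice was 0.48, with 0.25 at the 10th and 0.86 at the 90th percentile. An SD above 1 was seen for 120 genes, 5.09% of all, and 433 genes, 18.4%, ranged over more than 4-fold. For 34 probes printed 10 times per array, the median SD between spots was 0.22 and that between mice 0.45, and the latter was larger for 29 of the 34. The spread between spots of 1 array leaves out amplification, labelling and hybridisation, which the spread between arrays includes, so the shares of mouse and array cannot be told apart. For the 156 genes with several passing probes, the median correlation between probes over the mice was 0.61, and it was below 0 for 24 of them. The correlation was above 0.5 for 96 genes.

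Of the 15 named genes with the largest spread among those measured in both channels, 7 were acinar. Cela3b, an elastase, had an SD of 1.80, Cpb1 and Cpa1, carboxypeptidases, 1.66 and 1.63, Reg1, a secreted protein of acinar cells, 1.66, and Sycn, a zymogen granule protein, 1.49. The lipase gene Pnlip (1.35) was also among them. Genes outside the acinar list were Prc1, Ciapin1, Slpi, Akr1c19, Maob, Slc30a4, Prss53 and Cd74. Prc1 had the largest SD, 2.20, which came from mouse 4, where its net Cy5 signal was about 1 scanner unit. Ciapin1 was likewise low in 1 mouse only, at -5.12 in mouse 5 against -1.92 to -0.60 in the others. Of the cell types, acinar genes had a median SD of 1.41, class II genes 0.98, beta cell hormone and surface genes 0.84 and pan-leukocyte genes 0.64.

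The slide was tested as a batch. In limma's F-test of the slide, 0 of 2356 genes passed, and 93 (3.95%) had an unadjusted p under 0.05. Each slide held 2 arrays.

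For a view of single mice, 7 genes were taken as anchors of their cell types: Ins2, Chga and G6pc2 for endocrine cells, Ptprc, B2m and Lyz2 for leukocytes, and Cpa1 for acinar cells. G6pc2 stood in for Slc2a2. In mice 1 to 6 in turn, the log2 ratio of Ins2 was 8.45, 7.36, 9.15, 7.32, 9.20 and 8.29. Mice 3 and 5 were high and mice 2 and 4 low. On Cy5 alone, Ins2 measured 8.07, 7.07, 9.19, 6.30, 7.98 and 7.77, so that mouse 5 did not stand above mouse 1. Chga measured 6.21, 5.63, 7.58, 5.35, 6.49 and 5.82 in the same mice, with mouse 3 highest and mouse 4 lowest. G6pc2 measured 11.12, 10.05, 12.06, 9.13, 11.20 and 10.61, again with mouse 3 highest and mouse 4 lowest.

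Ptprc took nearly the opposite order. Its log2 ratio in mice 1 to 6 was 3.47, 3.87, 2.34, 3.68, 2.61 and 3.07, so that mice 3 and 5 were the lowest and mice 2 and 4 the highest. B2m measured 0.93, 0.97, -0.05, 1.30, 0.78 and 1.02, with mouse 3 lowest and mouse 4 highest. Lyz2 measured 1.12, 1.26, 0.52, 0.71, 0.43 and 1.31, and here mouse 6 was highest and mouse 4 was among the lower mice. B2m is expressed by all nucleated cells, so it marks no single cell type.

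**Figure D2:**
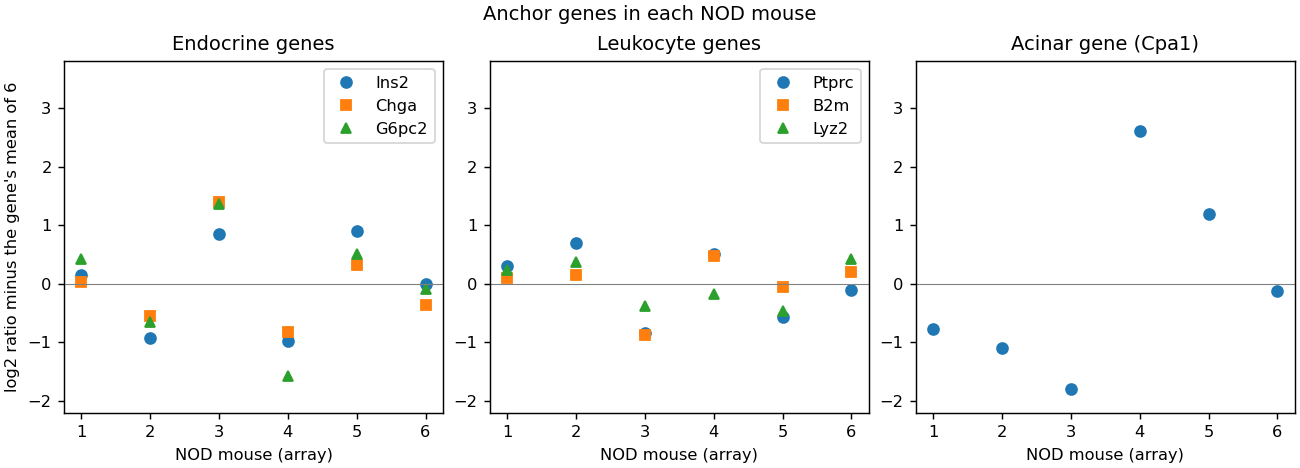
Deviation of each anchor gene from its own mean (vertical axis, log2 ratio) in each of 6 NOD mice (horizontal axis; the mice have no order), 1 point per array, with endocrine, leukocyte and acinar genes in separate panels. Mouse 3 is high for Ins2, Chga and G6pc2 and low for Ptprc and B2m, mice 2 and 4 show the reverse, and Cpa1 stands out in mouse 4.

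Over the 21 pairs of anchors, Pearson's r passed the threshold for 3 after Benjamini-Hochberg adjustment (exact 2-sided permutation test over 720 pairings). B2m and Chga were opposed, with r = -0.97 (exact p = 0.00278, adjusted 0.0438) and rho = -0.94 (exact p = 0.0167, adjusted 0.07). Ins2 and G6pc2 moved together, with r = 0.91 (exact p = 0.00417, adjusted 0.0438) and rho = 0.94 (exact p = 0.0167, adjusted 0.07). Chga and G6pc2 also moved together, with r = 0.93 (exact p = 0.00694, adjusted 0.0486) and rho = 1.00 (exact p = 0.00278, adjusted 0.0583). No pair passed on Spearman's rho after adjustment. Without the 2 mice farthest from the median of the first gene, the 3 values of r were -0.88, 0.75 and 0.94. None of the 3 passed after normexp and loess, with the scanner's own processed ratio, with the filter of 4 arrays, with the mean over probes, or with any mouse left out. The r of B2m and Chga was -0.45 with the scanner's ratio and -0.99 to -0.90 with a mouse left out. That of Ins2 and G6pc2 was 0.82 and 0.89 to 0.95, and that of Chga and G6pc2 0.88 and 0.92 to 0.96. With 5 mice, the smallest exact p a pair can reach is 0.00833.

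The opposition of Ptprc and Ins2 did not pass, with r = -0.93 (exact p = 0.0222, adjusted 0.0583) and rho = -0.83 (exact p = 0.0583, adjusted 0.136). Without mice 3 and 5, r was -0.79, and on Cy5 alone over the 6 mice it was -0.80 (adjusted exact p = 0.131). Ptprc and Chga gave r = -0.87 (exact p = 0.0194, adjusted 0.0583) and rho = -0.89 (exact p = 0.0333, adjusted 0.0875), and r = -0.43 without mice 3 and 5, so this value rests on those mice. Ptprc and Lyz2 gave r = 0.65 (exact p = 0.163, adjusted 0.263) and rho = 0.54 (exact p = 0.297, adjusted 0.39), and r turned to -0.36 without mice 3 and 5. Cpa1 was not clearly related to Ptprc (r = 0.23, exact p = 0.653; rho = 0.20, exact p = 0.714) or to Ins2 (r = -0.31, exact p = 0.55; rho = -0.26, exact p = 0.658).

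The differences within each slide were set beside these values. From mouse 1 to mouse 2, from 3 to 4 and from 5 to 6, Ptprc differed by 0.40, 1.34 and 0.47, and Ins2 by -1.08, -1.83 and -0.91. Chga differed by -0.58, -2.22 and -0.67 and B2m by 0.04, 1.35 and 0.24. Ins2 and Chga were thus opposed to Ptprc and B2m on 3 of 3 slides, with slide 2 giving the largest differences. The B2m difference on slide 1 was below 0.22, the median SD between spots of a probe. On each slide the second mouse also had more spots with Cy5 above background. The percentages were 16.5 and 17.3, 12.4 and 12.9, and 10.7 and 14.6. The direction within a slide and this percentage therefore cannot be told apart. Cpa1 did not follow, with -0.32, 4.40 and -1.31.

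**Figure D3:**
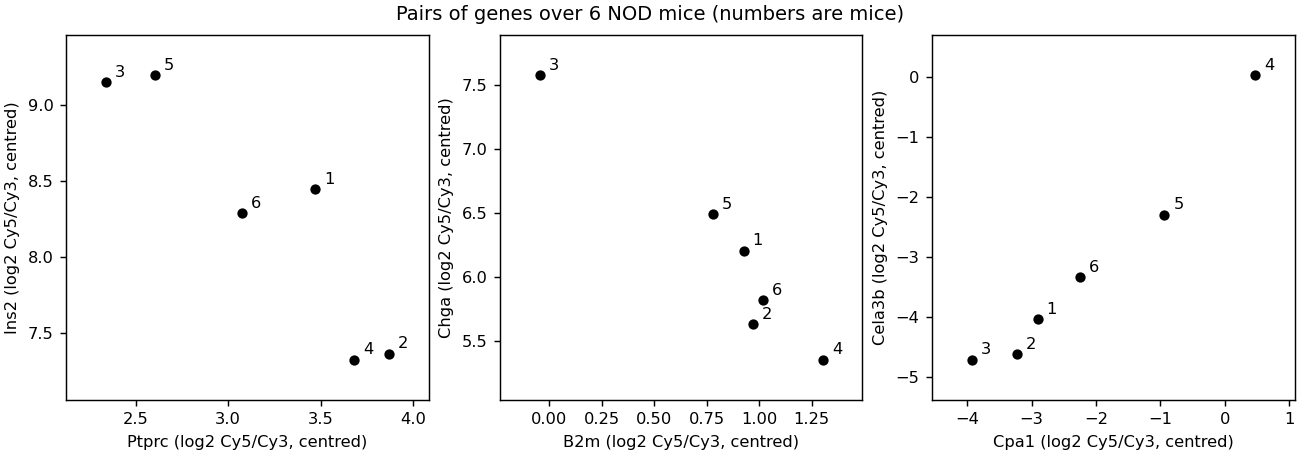
Values of 3 pairs of genes over 6 NOD mice (both axes log2 Cy5/Cy3 with the array median at 0), 1 point per mouse, labelled with the mouse number. Ptprc and Ins2 and B2m and Chga run in opposite directions with mouse 3 at one end, and Cela3b rises with Cpa1, with mouse 4 far from the other 5 mice.

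Array brightness and the reference channel were set beside these values. Ptprc and the percentage of spots with Cy5 above background gave r = 0.73 (exact p = 0.114, adjusted over 7 anchors 0.399) and rho = 0.77 (exact p = 0.103, adjusted 0.36), and r = 0.45 without the 2 mice farthest from the median brightness. For Lyz2 these were r = 0.89 (exact p = 0.0306, adjusted 0.214), rho = 0.83 (exact p = 0.0583, adjusted 0.36) and r = 0.80. For Ins2 they were r = -0.57 (exact p = 0.243, adjusted 0.567), rho = -0.60 (exact p = 0.242, adjusted 0.416) and r = 0.02. A fit with brightness as a covariate called 0 genes for Ptprc and 0 for Ins2. The fits without it also called 0, so these counts cannot show an effect of brightness. The reference signal of the Ins2 probe ran from 821 to 1702 units and moved with its islet signal of 3259 to 22447 units (r = 0.92, exact p = 0.00833, adjusted 0.0583; rho = 1.00, exact p = 0.00278; r = 0.96 without the 2 mice farthest from the median). The islet signal thus ranged over 6.89-fold and the centred ratio of Ins2 over 3.67-fold. For Chga, the reference signal ranged over 1.08-fold.

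A regression of every other gene on Ptprc asked which genes followed the leukocyte anchor. None of the 2355 genes passed after adjustment (limma), while 174 (7.39%) had a positive and 217 (9.21%) a negative slope at an unadjusted p under 0.05. The slope was positive for 12 of 12 pan-leukocyte genes, 5 of 5 T cell genes, 5 of 5 B and plasma cell genes and 54 of 60 ribosomal protein genes, against 46.9% of all genes. It was negative for 11 of 11 granule genes and 16 of 20 genes of the ER chaperone and unfolded protein response, against 53.1% of all genes. Of 15 macrophage and dendritic cell genes 13 had a positive slope, 2 of them with an unadjusted p under 0.05. The 11 genes of MHC class I presentation split into 6 positive and 5 negative slopes. Genes of a list share the same 6 arrays and are not independent of each other, and no test was made over a list.

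The smallest p among positive slopes belonged to Arl5c, a small GTPase of the ARF family, with a slope of 1.55 ± 0.27 (SE, adjusted p = 0.168, limma). Its net Cy5 signal was only 13.5 scanner units in mouse 3 and 10 in mouse 5, the mice with the lowest Ptprc. Vcam1, an adhesion molecule for leukocytes, had a slope of 1.62 ± 0.35, the transcription factor Fli1 1.44 ± 0.31, Cd74 1.96 ± 0.43, and the kinase Map4k1 of blood cells 1.37 ± 0.32. Among negative slopes, Hyou1, a chaperone of the endoplasmic reticulum, had -2.01 ± 0.37, the islet transcription factor Neurod1 -1.45 ± 0.28, Iapp -1.43 ± 0.28, the granule protein Scg5 -1.34 ± 0.28 and Ins1 -1.30 ± 0.28. The net Cy5 signal of Neurod1 was 9 to 47 scanner units over the 6 mice, and in mouse 5 that of Cd74 was 16.5 and that of Map4k1 18. Slopes of such dim genes are less certain. A slope of 1 means that the gene's log2 ratio moved as much as that of Ptprc. After normexp and loess, 15 positive and 2 negative slopes passed, among them Ccl5, Cd74, Cd79b, Fli1, Map4k1, Ms4a4b, Ptprcap and Vcam1. Without mouse 3, the slopes of 1 gene on the positive and 3 on the negative side passed.

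The regression on Ins2 uses the same 6 arrays, on which Ins2 and Ptprc were opposed, so it is no independent evidence. No gene passed after adjustment (limma), with 230 positive (9.77%) and 161 negative (6.84%) slopes at an unadjusted p under 0.05. The slope was positive for 11 of 11 granule genes and for 16 of 20 interferon-induced genes, against 54.3% of all genes, and negative for 13 of 13 pan-leukocyte and 58 of 60 ribosomal protein genes, against 45.7%. Ins1 had a slope of 0.97 ± 0.20, G6pc2 1.13 ± 0.24, Iapp 1.04 ± 0.22 and Hyou1 1.45 ± 0.30. On the negative side stood Cd79b at -1.21 ± 0.25, Slpi, a protease inhibitor, at -1.66 ± 0.34 and the TGF-beta receptor gene Tgfbr2 at -1.28 ± 0.25. The net Cy5 signal of Cd79b was 21.5 scanner units in mouse 3 and 20.5 in mouse 5. Without mouse 5, 3 positive slopes passed, those of Hyou1, Khdrbs3 and Maob.

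Interferon-induced genes and chemokines were split in sign, much as all genes were. Of the 20 interferon-induced genes, 10 had a positive and 10 a negative slope on Ptprc, against 46.9% and 53.1% of all genes. The 9 genes of chemokines and their receptors split into 5 and 4. Cxcl10 was highest in mouse 5, at 5.82 against 3.42 to 4.46 in the other mice, although Ptprc was low there. Igtp was highest in mouse 5 too, at 2.53 against 1.16 to 2.02. Cxcl13, which draws B cells, was lowest in mouse 3 at 1.21 and in mouse 4 at 1.79, and lay between 2.76 and 3.85 elsewhere. The median deviation of the interferon list from each gene's own mean was 0.55 in mouse 5 and -0.33 in mouse 4, whereas that of the pan-leukocyte list was -0.57 and 0.45. Whether the slopes of these lists differ from each other was not tested.

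**Figure D4:**
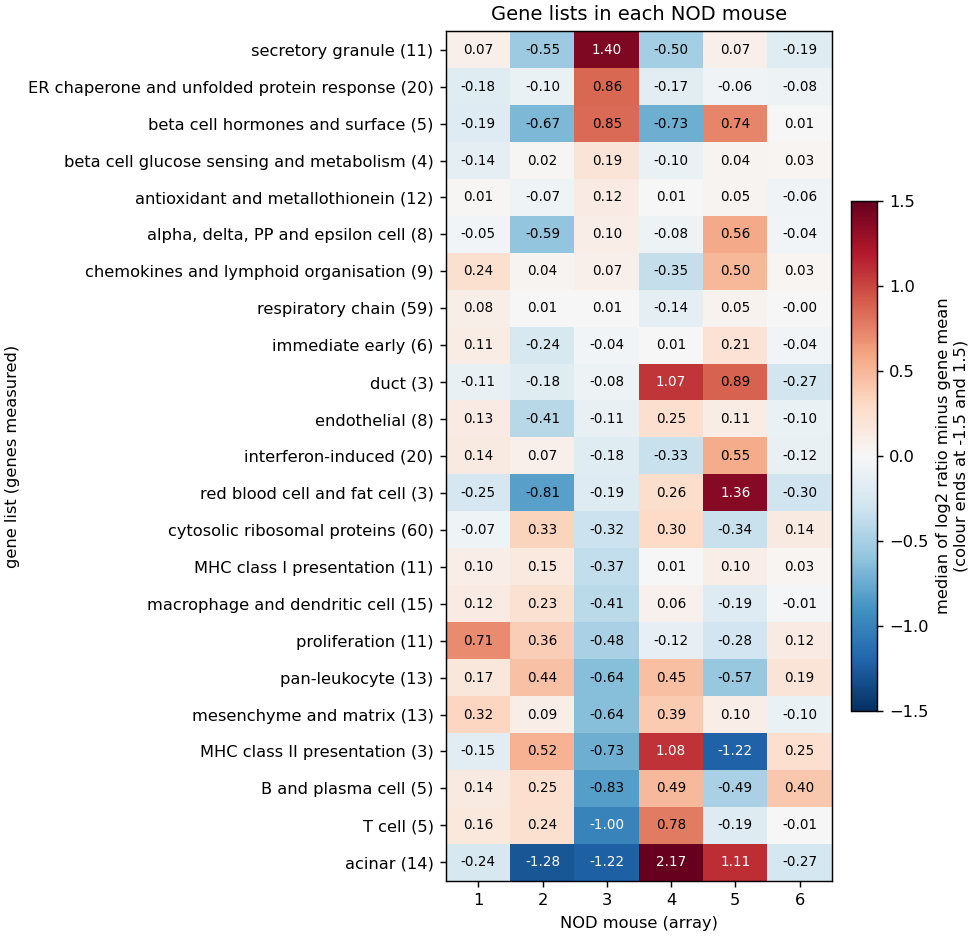
Median deviation of the genes of a list from their own mean (colour and printed value, log2 ratio) in each of 6 NOD mice (columns; no order), for the 23 lists with at least 3 measured genes, whose number stands in brackets. Mouse 3 is high for granule (1.40) and ER chaperone genes (0.86) and low for pan-leukocyte genes (-0.64), and mouse 4 is high for acinar genes (2.17). Mouse 5 is low for class II genes (-1.22) while interferon-induced genes are at 0.55. The net Cy5 signal of the 3 class II genes in mouse 5 was 16.5 to 17.5 scanner units.

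Acinar genes had the widest range of the lists. Cpa1, a carboxypeptidase secreted by acinar cells, had log2 ratios of -2.91, -3.23, -3.93, 0.47, -0.94 and -2.26 in mice 1 to 6. Mouse 4 stood highest, mouse 5 next and mouse 3 lowest, a range of 21.0-fold. In scanner units the net Cy5 signal of Cpa1 was 1744 in mouse 4 and 82.5 to 416 in the others. Cela3b measured -4.03, -4.61, -4.71, 0.03, -2.29 and -3.33, in the same order of mice. Both channels were above background for these genes on all arrays. Of the 46 listed acinar genes, 39 are on the array and 14 passed the filter. The probes of Ctrb1, Prss2 and Cela1, other digestive enzymes, were above background on 0 arrays and that of Cel on 5.

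In the regression on Cpa1, 6 genes passed with a positive slope, 0.255% of the 2355 tested, and 0 passed with a negative one, while 78 positive (3.31%) and 64 negative (2.72%) had an unadjusted p under 0.05 (limma). Among the 6 were Cela3b with a slope of 1.09 ± 0.12 (SE, adjusted p = 0.00631), 2210010C04Rik, a trypsinogen gene still under a clone name, with 0.96 ± 0.11 (adjusted p = 0.00631), Sycn with 0.91 ± 0.11 (adjusted p = 0.00631), the colipase gene Clps with 0.76 ± 0.11 (adjusted p = 0.0253) and the trypsinogen gene Prss3 with 0.75 ± 0.12 (adjusted p = 0.0437). All 6 are on the acinar list. The slope was positive with an unadjusted p under 0.05 for 13 of 13 acinar genes, while over all genes 55.8% of slopes were positive and 44.2% negative. S1pr1, a receptor of endothelial cells and lymphocytes, came next with 0.62 ± 0.11 and an adjusted p of 0.0621. Trypsinogen genes are close copies of each other, and their probes may share signal. The gene 2210010C04Rik was named after its values were seen, since the rule for named genes passes over clone names.

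The calls rest on mouse 4. Without that mouse, 0 genes passed, although the slopes of Cela3b and Sycn were 0.87 and 1.04. Without mouse 3, only Cela3b passed, and without mouse 1, 3 genes passed. With the slide as a fixed block, 0 passed, and the slope of Cela3b was 1.06. The same 6 genes passed after normexp and loess, with the scanner's own ratio and with the mean over probes. In mouse 4 the median deviation was 2.17 for acinar genes, 1.07 for 3 duct genes and 0.45 for pan-leukocyte genes. Of the duct genes, Ambp and Spp1 were above their means in that mouse (-3.86 and 0.14), whereas Krt8 was at its lowest there (-2.95). The duct median in mouse 4 was the deviation of Ambp, whose net Cy5 signal was only 6.5 to 25 scanner units over the 6 mice.

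**Figure D5:**
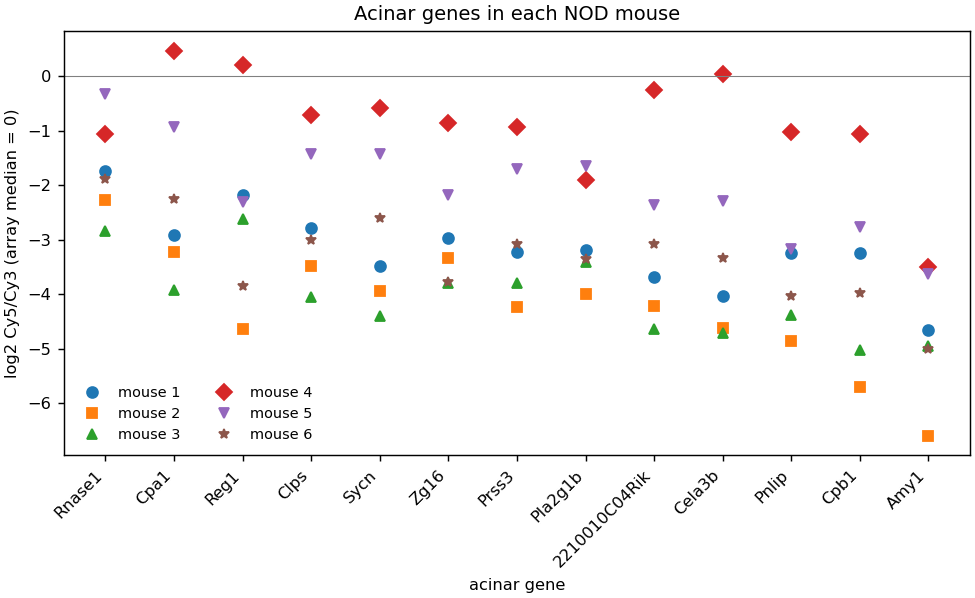
Log2 Cy5/Cy3 (vertical axis, array median at 0) of 13 of the 14 measured acinar genes (horizontal axis, ordered by mean) in each of 6 NOD mice, 1 symbol per mouse. Mice 4 and 5 lie above the other mice for most genes, and Cpa1 reaches 0.47 in mouse 4 against -3.93 in mouse 3.

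Sequences before the start sites of some of these acinar genes are shown because the genes moved together over the mice. RefSeq (GRCm38.p6) gave the 250 bases before the start for 5 of the 7 genes, Cpa1 and the 6 that passed with it. These motifs were searched on both strands: the E-boxes CACCTG and CAGCTG and the box TTTCCCA, which are parts of the site of the acinar factor PTF1, and the TATA box TATAAA. No match overlaps another in the windows shown. Matches are in capitals.
Cela3b, chr4:137430521-137430770, minus strand: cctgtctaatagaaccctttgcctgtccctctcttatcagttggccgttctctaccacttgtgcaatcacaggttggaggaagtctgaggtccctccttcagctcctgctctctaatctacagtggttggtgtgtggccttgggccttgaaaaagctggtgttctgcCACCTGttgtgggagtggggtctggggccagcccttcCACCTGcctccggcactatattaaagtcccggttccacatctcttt
Cpa1, chr6:30638968-30639217, plus strand: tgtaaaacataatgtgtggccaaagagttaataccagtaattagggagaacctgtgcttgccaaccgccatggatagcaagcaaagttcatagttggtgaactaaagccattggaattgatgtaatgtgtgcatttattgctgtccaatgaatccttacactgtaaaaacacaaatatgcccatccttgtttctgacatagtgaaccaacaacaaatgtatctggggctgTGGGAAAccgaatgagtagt
Prss3, chr6:41377614-41377863, minus strand: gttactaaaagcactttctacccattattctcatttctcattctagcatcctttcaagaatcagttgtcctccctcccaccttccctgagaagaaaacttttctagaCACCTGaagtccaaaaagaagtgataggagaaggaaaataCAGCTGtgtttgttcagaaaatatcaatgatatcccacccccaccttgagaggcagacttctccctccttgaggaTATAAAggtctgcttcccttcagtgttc
CACCTG or CAGCTG was found in 3 of the 5 windows, against 27.7% of 32851 RefSeq windows of the same length. TTTCCCA was found in 1 of 5, against 6.82%, and TATAAA in 2 of 5, against 12.4%. The window of Cela3b held CACCTG at 83 and 46 bases before the start. Not shown are the window of Sycn, which held no match, and that of 2210010C04Rik, which held CACCTG and TATAAA. A match describes letters only, and these data hold no measure of binding.

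Principal components over the 6 mice were taken over all genes at once. The first held 41.7% of the variance and set mouse 5, whose array was the dimmest, against mouse 2, whose array was the brightest. Of the 30 genes with the largest weights on the side of mouse 5, 0 belonged to any list. On the side of mouse 2, 25 of 30 belonged to none of the lists, as do most of the 2356 genes. Ciapin1 had the largest weight there, and its net Cy5 signal in mouse 5 was 0.5 scanner units. Cd74, Slpi, Tgfbr2, Ctss and Map4k1 were also among these 30. Over the 6 mice the scores of this component and the percentage of spots with Cy5 above background gave r = -0.85 (exact permutation p = 0.0167, adjusted over 4 components 0.0667) and rho = -0.83 (exact permutation p = 0.0583, adjusted 0.206), and r = -0.56 without the 2 mice farthest from the median brightness. The second component held 25.5% and set mouse 3 against mouse 4, with Scg3, Hyou1, Abcc8 and G6pc2 on the side of mouse 3 and 11 acinar genes among the 30 on the side of mouse 4. The third held 15.0% and set mouse 4 apart, again with 12 acinar genes among 30. The acinar list holds 14 of the 2356 genes. The fourth held 9.83% and set mouse 1 apart, with Reg1, Cpb1 and the chromatin protein gene Hmgb2 on its side.

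Mouse 3 was high for genes of the ER. Hyou1 measured 3.02 in mouse 3 against -0.72 to 1.27 in the others, and the median deviation of the 20 ER chaperone genes was 0.86 in mouse 3 and -0.18 to -0.06 in the others. The granule list showed 1.40 in mouse 3 and -0.55 to 0.07 elsewhere, while beta cell hormone and surface genes showed 0.85 in mouse 3 and 0.74 in mouse 5. On Cy5 alone the latter list showed 1.46 in mouse 3 and 0.07 in mouse 5, and the reference signal of Ins1 was 401.5 units in mouse 3 and 69 in mouse 5. Abcc8, a subunit of the beta cell's potassium channel, was highest in mouse 3 at 7.04 and lowest in mouse 5 at 4.10, where its net Cy5 signal was 9 scanner units. The list medians of respiratory chain genes ran from -0.14 to 0.08 over the 6 mice.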

How the data were processed

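Islet RNA (Cy5) of 6 NOD mice was hybridised against reference RNA (Cy3) on 2-colour Agilent arrays, 1 per mouse. Scanner output deposited by the authors names Feature Extraction in version 10.5.1.1 and gives median signal and background intensity per spot and a processed log10 ratio. A deposited series table holds log2 values, which lay within 0.01 of the scanner's processed ratio for 99.5% of the values of passing probes. Its further processing is not given in the sources used here. From the intensity values, background was subtracted and control spots were left out. Outlier spots were left out only where another spot of the same probe remained, and were kept otherwise. Replicate spots were averaged. The log2 Cy5/Cy3 was centred on each array's median over probes with the scanner's well-above-background flag for Cy5 on 6 of 6 arrays. That flag can stand on a spot whose net median signal is near 0, as for Prc1 in mouse 4 and Ciapin1 in mouse 5. Accessions were named through RefSeq (GRCm38.p6), which gave a symbol to 24375 of 41174 probes. The brightest passing probe stood for its gene, and 569 passing probes without a symbol entered the centring only.

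Fits used limma 3.58.1 (R 4.3.3), 2-sided, with Benjamini-Hochberg adjustment over all genes and a threshold of 0.05, and were tested on simulated data. Correlations used exact permutation tests. Named genes were the 10 highest and 10 lowest mean ratios, the 15 largest SDs, the 8 smallest p per sign for each of 3 anchors, up to 4 brightest members of each list, and the anchors, with clone names passed over. Members and lists were chosen with earlier results of these data known. Alternatives changed the background and normalisation, source of the ratio, channel, filter, choice of probe, slide, brightness and mice. The number of arrays limits the precision. Some genes that entered the fits and counts are not reported here by name. The 6 other arrays of the series were not used here.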

Additional observations from a re-analysis of the deposited data

Results flagged for a closer look

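In 169 groups of 6 values, the highest or lowest mouse was compared with its nearest neighbour by Dixon's criterion, and 12 stood apart. For groups chosen without regard to their values, chance alone flags about 1 in 20. Many of these groups were named genes, picked in part for their spread, ratio or slope in the same data. That share therefore does not apply to them, and all groups share the same 6 arrays. Mouse 3 stood apart most often among the gene lists. Its median deviation was 1.40 for the secretory granule list (next mouse 0.07) and 0.86 for the ER chaperone list (next mouse -0.06), both highest, and -0.37 for the MHC class I list, the lowest (next mouse 0.01). Single genes were also lowest there: H2-M3, a class I gene, at 2.93 (next 3.53), and Dcn, which encodes the matrix protein decorin, at -1.95 (next -0.65).

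Mouse 5 was highest for Car3, a carbonic anhydrase of fat and muscle, at -2.05 (next -3.58), and for the zinc transporter gene Slc30a4 at 3.58 (next 0.79). It was lowest for Ciapin1 at -5.12 (next -1.92) and for Tmsb4x, an actin-binding peptide gene, at 0.070 (next 1.15). Prc1 was lowest in mouse 4 at -5.55, and Cxcl16 was highest in mouse 1 at 3.23 (next 2.41). The percentage of spots with Cy3 above background was lowest in mouse 2, at 46.7% (next 50.2%).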

How the results depend on the processing

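No paired analysis was possible because only 1 group is analysed here. Without centring, 11 genes were higher than the reference and 2319 lower, and after normexp and loess 432 were lower. Normexp and loess gave 15 positive and 2 negative slopes on Ptprc, a median SD of 0.34 over all genes and 0 passing pairs of anchors. The scanner's processed ratio gave 2 positive and 1 negative slope on Ins2 and 0 passing pairs. Pairs passing were also 0 with the filter of 4 arrays and with the mean over probes, and 6 with Cy5 alone. On Cpa1, 0 positive slopes passed with slide as a fixed block, and 2 negative ones with brightness as a covariate. With 1 mouse left out, the positive slopes on Cpa1 numbered 0 to 5 and the negative ones 0 to 2, those on Ptprc 0 to 1 and 0 to 3, the positive ones on Ins2 0 to 3, and passing pairs 0 to 0. After normexp and loess, with the median of all genes under that scaling subtracted, the sign turned for Atp5c1 (1.05), Atp5g3 (0.92), Atp5j (1.16), Col3a1 (0.19), Cpa1 (0.36), Ctsl (0.41), Dcn (1.16), Fth1 (2.64), Glud1 (0.071), Ifi27 (0.25), Ifi27l2a (0.78), Mdh2 (0.44), Ndufa1 (1.24), Sod1 (0.61), Sparcl1 (0.48), Spp1 (0.0765), Ssr3 (0.77) and Txn1 (0.22). Against 0, as in the main values, the sign turned for Canx with the mean over probes (-0.059) and for Igfbp7 with the scanner's ratio (-0.0596) and the deposited series table (-0.0595); under the scanner's ratio the median of all genes was -0.07, so Igfbp7 did not lie below it. The r of Lyz2 and G6pc2 turned to 0.086 after loess, and with the scanner's ratio that of Lyz2 and Cpa1 to 0.074 and of Ins2 and Cpa1 to 0.12. With 1 mouse left out, the r of Ptprc and Cpa1 ran from -0.21 (without mouse 3) to 0.53 and was -0.15 without mouse 4, and that of Ins2 and Cpa1 ran from -0.64 to 0.28 (without mouse 4). The cause of these changes was not tested. Pairs centred within a slide mirror each other and were given no test, and Cy5 alone was not run against the reference, which it leaves out. Probes with Cy5 near background limit what can be read for the lowest genes.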
